A study of Homo sapiens with 6 samples.

Results

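The 9 genes described here encode high mobility group proteins: HMGB1, HMGB2, HMGB3, HMGA1, HMGA2, HMGN1, HMGN2, HMGN3 and HMGN4. They were chosen by name, out of 20175 protein-coding genes, and their data were the 20-bp bins of the CELF1 RIP-seq lists whose centre lies in one of their annotated exons on the transcript strand. This gave 794 of 816781 listed bins in the SK-Mel-103 sample, and in UACC-62 it gave 661 of 780750 (replicate 1) and 774 of 862731 (replicate 3). SK-Mel-103 and UACC-62 are human melanoma cell lines, grown without any treatment in serum-supplemented medium. RNA was recovered from fixed lysates with an antibody against CELF1 (the RNA-binding protein also named CUGBP1), and each IP was set against an input sample of the same line and number. There were 3 IP samples and 3 inputs, with SK-Mel-103 represented by 1 pair and UACC-62 by 2 biological replicates, numbered 1 and 3. Each line stands for a single tumour, and an IP with an unrelated antibody was not analysed here.

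The lists contain only bins that passed the peak caller. Wherever 3 values follow each other, the first is that of SK-Mel-103 and the others are those of UACC-62, replicate 1 before replicate 3. The listed IP reads were 10958459, 11333805 and 14436573, and the listed input reads 8453517, 10161917 and 8900292. Input reads outside the listed bins are unknown, so that every value of IP over input holds for bins in which the IP passed. A bin counts as a peak above 30 IP reads, provided its p-value is under 0.05, and a common peak is the same bin with a peak in all 3 IP samples. As a check of the labelled cell type, the summed input of 8 melanocyte-lineage markers was 900 reads in SK-Mel-103, against 15700 and 11949 in UACC-62. In SK-Mel-103, SOX10 supplied 864 of the 900 reads, and MITF and MLANA supplied 18 each. PMEL and TYRP1 had no listed bin in any sample, and TYR, DCT and S100B had none in SK-Mel-103. Keratinocyte and fibroblast markers had no listed input reads, and the immune markers had at most 3. DCN, a fibroblast marker, had 4 IP reads in UACC-62 replicate 3. PTPRC, an immune marker, had 25 IP reads in UACC-62 replicate 1 and 8 in replicate 3. A gene without listed bins has unknown input, so this check cannot show that a marker was absent. PECAM1, the endothelial marker, was not analysed here. In such bulk lysates, fewer cells with an mRNA and less of it per cell cannot be told apart. With 1 sample against 2, no exact test between the lines can give a p-value under 1 in 3, and none was made. With 3 IP and input pairs no 2-sided exact test can go below 1 in 4, so the values are described by their spread.

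High mobility group proteins are small, abundant chromatin proteins of 3 families. HMGB proteins bend DNA with their HMG boxes, and HMGB1 released from cells also acts as an alarm signal. HMGA proteins bind AT-rich DNA through AT-hook motifs, are abundant in embryos and return in many tumours, and HMGA2 mRNA is a known target of the let-7 miRNAs through its long 3′ UTR. HMGN proteins bind nucleosomes and counter compaction by linker histones. CELF1 binds GU-rich elements (GREs) in mRNAs and is known for effects on splicing, decay and translation. Several of these genes have many processed pseudogenes, which are copies of spliced mRNAs in the genome and have nearly the sequence of the parent mRNA.

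The stretches of 20 nt with the strongest IP in each mRNA are shown first, as examples of what was precipitated. They are the bins with the largest of the lowest IP count over the 3 samples, taken from the GRCh37 genome and written 5′ to 3′ as RNA, with each UGU in capitals.
HMGB1, chr13:31035261-31035280, minus strand: ccugguacaguauggggguu
HMGB2, chr4:174252901-174252920, minus strand: uuuuggguuuuuuaggaUGU
HMGB3, chrX:150159181-150159200, plus strand: uauuuggggacguuggaugc
HMGA1, chr6:34213921-34213940, plus strand: gggguagccaugauuUGUcc
HMGA2, chr12:66359941-66359960, plus strand: uauuucucuagUGUauuauc
HMGN1, chr21:40714261-40714280, minus strand: guacugauccucaaccaaua
HMGN2, chr1:26801981-26802000, plus strand: aUGUccucuucucccuuucc
HMGN3, chr6:79911001-79911020, minus strand: guUGUggccaccugcugacu
HMGN4, chr6:26546521-26546540, plus strand: acugccuUGUggaaauuuua
All 9 bins lie in annotated 3′ UTRs, and all except the HMGB3 bin are common peaks. UGU occurs in 6 of these 9 chosen bins, while over all common 3′ UTR peaks of the 9 genes it occurs in 40.8%, beside 40.5% for all genes.

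HMGA2, the AT-hook protein, had the most extensive IP signal of the 9 mRNAs. Its exons held 8496, 6892 and 10379 IP reads over 4309, 4876 and 4155 input reads. On the log2 scale, IP over input, each divided by the total of its list, was 0.60, 0.34 and 0.62, with a UACC-62 mean of 0.48 ± 0.20 (SD, n = 2). All 3 samples were above 0, and the SK-Mel-103 value lay within the UACC-62 range. HMGA2 carried 93, 81 and 104 peaks, of which 79 were common, placing it at rank 68 among the 1762 genes with a common peak. All 79 lay in the 3′ UTR, which took 97.8%, 96.7% and 98.4% of the IP reads of the gene. The strongest bin, centred 2881 nt after the stop codon in a 3′ UTR of 3002 nt, held 342, 278 and 436 IP reads over 82, 129 and 133 input reads. It was the highest bin of the main 3′ UTR in each of the 3 samples. Bin by bin, the UACC-62 IP replicates had a Pearson r of 0.93 over 179 bins of the gene, which share a transcript and are not independent. The r between the 2 inputs was 0.87, and between IP and input it was 0.78 in replicate 1 and 0.81 in replicate 3.

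HMGA1, the other AT-hook gene, gave different values in the UACC-62 replicates. It had 4336, 1438 and 2922 IP reads over 4114, 1590 and 1153 input reads. Scaled to 1000000 listed input reads, its listed input was 487 in SK-Mel-103 and 156 and 130 in UACC-62, with no overlap between the lines. Its log2 IP over input was -0.30, -0.30 and 0.64, so that UACC-62 replicate 3 alone was above 0 (UACC-62 mean 0.17 ± 0.67, SD, n = 2). The peaks numbered 51, 11 and 34, and the 11 of UACC-62 replicate 1 were also the 11 common peaks, all in the 3′ UTR. As in HMGA2, its highest bin sat close to the annotated end in every sample, at 1272 of 1350 nt, with 306, 102 and 239 IP reads over 104, 54 and 49 input reads.

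**Figure D1:**
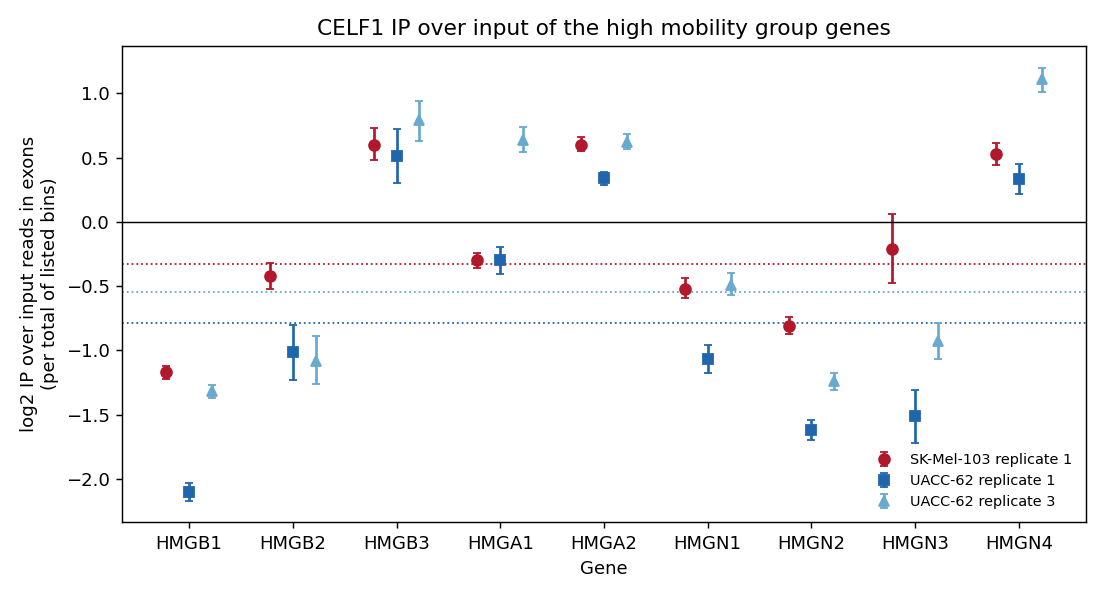
Log2 of CELF1 IP over input reads in exons (y axis, each count divided by the total of its list) for the 9 genes (x axis) in the SK-Mel-103 sample (circles) and the UACC-62 replicates 1 (squares) and 3 (triangles). Bars are 95% exact intervals for counting error only, and dotted lines are the medians of all genes (-0.33, -0.79 and -0.55). HMGB3, HMGA2 and HMGN4 lie above 0 in all 3 samples, and HMGA1 lies on both sides.

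HMGB1, the most abundant HMGB protein, had the lowest IP over input of the 9. It had 4825, 1884 and 5033 IP reads over 8396, 7247 and 7728 input reads. The log2 IP over input was -1.17, -2.10 and -1.32 (UACC-62 mean -1.71 ± 0.55, SD, n = 2), below 0 in all samples. It had common peaks even so, 16 in number, with 14 in the 3′ UTR and 2 in the coding region, the only common coding peaks of the 9 genes. The 3 samples had 49, 16 and 55 peaks, and every peak of UACC-62 replicate 1 was common. Its strongest bin, at 227 nt after the stop codon, held 273, 113 and 226 IP reads but 410, 347 and 364 input reads.

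HMGB2, an HMGB protein of dividing cells, differed between the lines in listed reads. Its listed bins numbered 47, 20 and 36, and input outside them is unknown, so these reads do not measure the amount of mRNA. Of every 1000000 listed input reads, 197 were from HMGB2 in SK-Mel-103 and 48.8 and 64.8 in UACC-62, and of as many listed IP reads 147 against 24.2 and 30.8. The lines did not overlap in either. There were 16 peaks in SK-Mel-103 and 1 in each UACC-62 sample, a single common peak with 197, 58 and 63 IP reads. Its log2 IP over input was -0.42, -1.01 and -1.08 (UACC-62 mean -1.04 ± 0.05, SD, n = 2). In the 3′ UTR alone it was 0.52 in SK-Mel-103 and -0.24 and -0.82 in UACC-62.

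HMGB3, the third HMGB gene, was the reverse of HMGB1, with a high ratio and no common peak. It had 1472, 489 and 1316 IP reads over 747, 308 and 470 input reads, spread over 116, 66 and 119 bins. The log2 IP over input was 0.60, 0.51 and 0.79 (UACC-62 mean 0.65 ± 0.20, SD, n = 2). No bin exceeded 39, 21 and 36 IP reads, which left 2, 0 and 2 peaks. The bins were also the least alike between the UACC-62 replicates, with a Pearson r of 0.45 over 62 bins, given as a description only.

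HMGN4, a gene with its whole coding region in 1 exon, had the highest mean ratio among the HMGN genes. It had 3024, 1492 and 4083 IP reads over 1620, 1062 and 1169 input reads. Its log2 IP over input was 0.53, 0.33 and 1.11 (UACC-62 mean 0.72 ± 0.55, SD, n = 2), with all samples above 0. It carried 42, 14 and 53 peaks, of which 14 were common and all in the 3′ UTR. The bin at 826 of 1457 nt was the highest of its 3′ UTR in each sample, with 133, 85 and 137 IP reads over 36, 45 and 50 input reads.

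HMGN1 and HMGN2, the canonical nucleosome binders, were below 0 in all samples. HMGN1 had 2865, 1016 and 2649 IP reads over 3159, 1915 and 2287 input reads. This gave log2 values of -0.52, -1.07 and -0.49 (UACC-62 mean -0.78 ± 0.41, SD, n = 2). It had 9 common peaks, all in the 3′ UTR, and its highest bin was at 771 of 800 nt in all samples. HMGN2 had 3352, 1618 and 3361 IP reads over 4525, 4458 and 4901 input reads. Its log2 values were -0.81, -1.62 and -1.24 (UACC-62 mean -1.43 ± 0.27, SD, n = 2), with 17 common peaks in the 3′ UTR.

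HMGN3 had the fewest listed bins, 20, 19 and 25. Its 246, 272 and 786 IP reads stood over 219, 698 and 924 input reads. The log2 IP over input was -0.21, -1.51 and -0.93 (UACC-62 mean -1.22 ± 0.41, SD, n = 2). The counting interval of the SK-Mel-103 value, -0.48 to 0.06, included 0. There were 2 common peaks, both in the 3′ UTR. Scaled to 1000000 listed input reads, the listed input of HMGN3 was lower in SK-Mel-103 (25.9) than in UACC-62 (68.7 and 104). This is the opposite order to HMGB2, with the same limit.

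Ordered by the mean of UACC-62, the log2 ratio ran from HMGN4 (0.72) through HMGB3 (0.65), HMGA2 (0.48), HMGA1 (0.17), HMGN1 (-0.78), HMGB2 (-1.04), HMGN3 (-1.22) and HMGN2 (-1.43) to HMGB1 (-1.71). The replicate values of neighbours in this order overlapped, except that both HMGA1 values were above both HMGN1 values. In all 3 samples, 3 of the 9 genes (HMGB3, HMGA2 and HMGN4) were above 0, where 24.9% of the 6648 genes with at least 100 reads per sample were. Another 5 were below 0, where 58.0% of these genes were, and HMGA1 was mixed. The all-gene medians were -0.33, -0.79 and -0.55, so 0 is not the centre of the scale. Relative to them, HMGA1 joined the 3 genes above the median in all samples, while HMGB1, HMGB2 and HMGN2 remained below it in all. The SK-Mel-103 value was above both UACC-62 values for 4 of the 9 genes (HMGB1, HMGB2, HMGN2 and HMGN3), beside 61.6% of all genes, and below both for 0, beside 18.3%. UACC-62 replicate 3 was above replicate 1 for 8 of the 9, HMGB2 being the exception. The all-gene median was also higher in replicate 3 (-0.55) than in replicate 1 (-0.79). The share of all genes with this order was not computed.

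A common peak was found in 8 of the 9 genes, compared with 8.73% of all protein-coding genes and 26.3% of those with at least 100 reads in each sample. A peak needs more than 30 IP reads, and the part of depth in the count was not tested. HMGB1 had more input reads than 98.6%, 97.1% and 98.2% of those 6648 genes, whereas HMGB3, with no common peak, had more than 63.9%, 35.6% and 48.0%. HMGN3, with 2 common peaks, had more than 29.1%, 58.0% and 67.8%. The 9 genes held 149 common peaks, 79 of them in HMGA2. Of the 149, 147 (98.7%, Wilson 95% interval 95.2 to 99.6, counting error only) lay in 3′ UTRs, where 85.8% of all common exon peaks lay. Neighbouring bins of an mRNA are not independent, so the interval is a description.

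**Figure D2:**
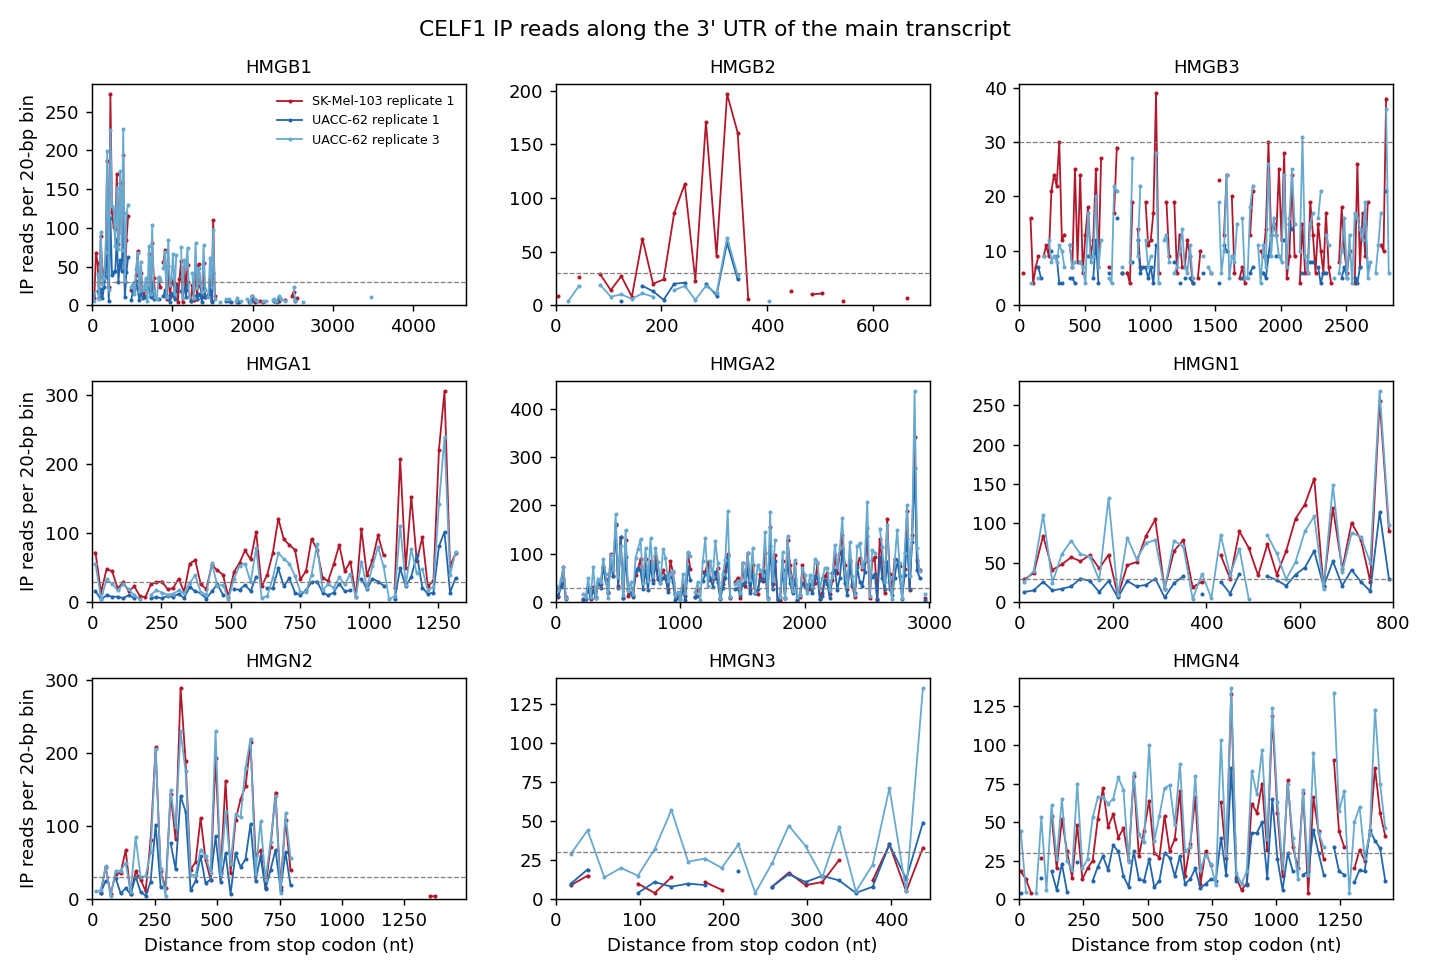
CELF1 IP reads per 20-bp bin (y axis, separate scale per panel) by distance from the stop codon in nt (x axis, whole 3′ UTR of the main transcript) in the SK-Mel-103 sample (red) and UACC-62 replicates 1 (dark blue) and 3 (light blue), with unlisted bins left blank and the limit of 30 reads dashed. HMGA1, HMGA2 and HMGN1 peak near the annotated end in all 3 samples, while HMGB1, HMGB2 and HMGN2 have few listed bins in the distal part.

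Along the 3′ UTR the genes fell into those with reads over the whole length and those with reads in the proximal part. In HMGB1, 95% of the IP reads lay within 1507 nt of the stop codon in all samples, of 4656 nt annotated. In HMGB2 they lay within 344 of 707 nt in all samples, and in HMGN2 within 754, 774 and 774 of 1497 nt. The input reads of the listed bins ended alike, at 1387, 1467 and 1467 nt in HMGB1, 344 nt in HMGB2 and 734 nt in HMGN2. In the other genes this point came at 93.2% or more of the annotated length. Because input is known for listed bins only, whether the distal parts were present in the input cannot be read from these data. In HMGB1 and HMGN2, 96.1% or more of the IP reads lay in bins with sequence shared with other loci, described below. Stretches of 40 nt with over 19 other places, counted over all annotated transcripts, numbered 359 in HMGB1, 752 in HMGN2 and 3 in HMGB2. Among genes with reads over the whole length, HMGA2 had 467, HMGN1 106 and HMGB3 21, and the rest had none. The part of such stretches in these profiles was not tested.

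Each 3′ UTR was also set against the coding region of the same mRNA. The difference in log2 IP over input was positive in all 3 samples for 7 of the 9 genes. Only 6 genes had at least 100 reads in both regions in each sample, and 5 of these were positive throughout, beside 63.1% of 3432 genes. HMGB2 had differences of 1.92, 1.74 and 0.52, above the medians over all genes of 0.48, 0.47 and 0.38. HMGA2 had differences of 0.87, 1.86 and 0.81, although its coding region held only 110 to 151 reads. HMGB1 had 0.48, 1.11 and 0.99 and HMGN4 had 0.74, 0.67 and 0.53. HMGA1 had 0.49, 0.32 and 0.05, below the all-gene medians in both UACC-62 samples. HMGN2 had 0.13, 0.31 and -0.03, values near 0 in all samples. HMGB3 had the widest gap, 2.51, 2.65 and 3.03, but with 68 to 251 reads in its coding region.

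**Figure D3:**
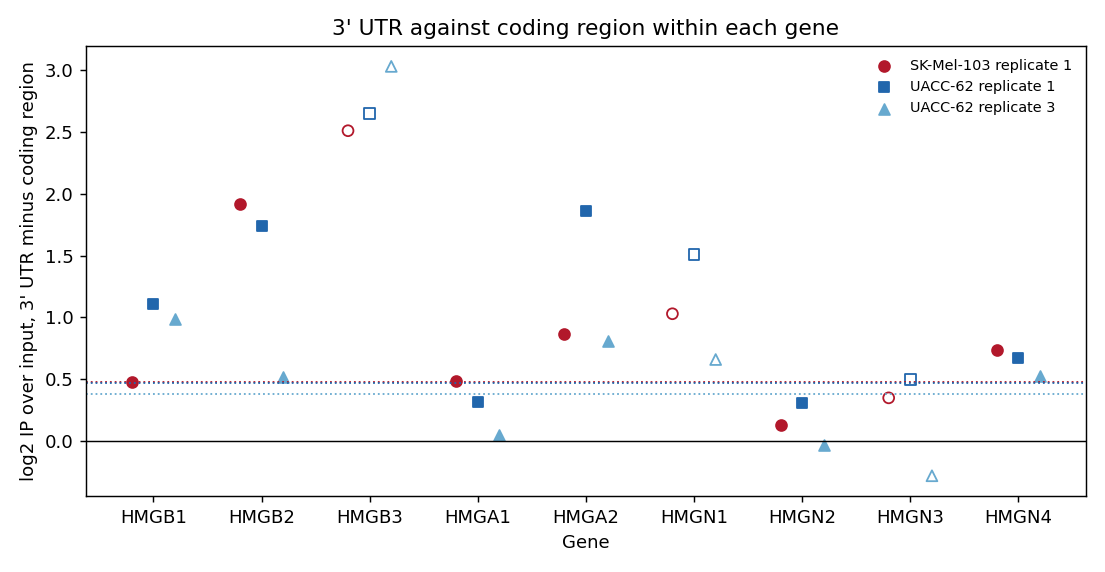
Difference in log2 CELF1 IP over input between 3′ UTR and coding region (y axis) for the 9 genes (x axis) in the 3 samples, with open symbols for genes under 100 reads in either region in any sample, and dotted lines at the medians of 3432 genes. HMGB2 lies above these medians in all samples, and HMGN2 lies between -0.03 and 0.31.

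The study searched for GREs as 11-mers of the forms UGUGUGUGUGU and UGUUUGUUUGU with up to 2 mismatches, and the same search was run on the transcript strand of the main 3′ UTRs. HMGB3 had the most matches, with 21 overlapping starts, followed by HMGN4 with 6, HMGB2 with 5, HMGN2 with 4 and HMGB1 and HMGN1 with 3 each. HMGA1, HMGA2 and HMGN3 had none, which says only that these letters do not occur in that window. Of the 147 common 3′ UTR peaks, 3 (2.04%) overlapped a match, beside 4.84% of all 24488 common 3′ UTR peaks, and all 3 were in HMGN2. Without HMGA2, which supplied 79 of the peaks and has no match, the share was 4.41% (3 of 68). The shorter UGU occurred in 60 of the 147. Among the genes with at least 9 such peaks, this ran from 27.3% of 11 peaks in HMGA1 and 32.9% of 79 in HMGA2 to 70.6% of 17 in HMGN2, and the single peak of HMGB2 and both of HMGN3 held it.

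Selected GRE matches are the following, with the 11-mer in capitals between 8 nt on each side. The HMGN2 elements lie in common peaks, HMGB2 has the only exact match, and the HMGB3 and HMGN4 elements were picked from bins with IP above input. Other matches went the other way. The HMGB1 match at 133 nt lay in a bin with 43, 23 and 35 IP reads over 143, 104 and 118 input reads. The HMGB3 match at 1805 nt lay in a bin not listed in any sample.
HMGN2, chr1:26801974-26801984, plus strand: aacaaauuUGUUUUUAUGUccucuucu
HMGN2, chr1:26802411-26802421, plus strand: aaauaccaUGAUUGUUUAUggaaagua
HMGB2, chr4:174253191-174253201, minus strand: guguggaaUGUGUGUGUGUgcucaggc
HMGB3, chrX:150157414-150157424, plus strand: ugugugauUUUGUUUGUGUcugagugg
HMGN4, chr6:26546720-26546730, plus strand: uaaauuuuUGUGUAUGUGUgugggucu
The first HMGN2 element overlaps the strongest bin of the gene, with 289, 141 and 230 IP reads over 695, 529 and 500 input reads. The second lies at 775 nt, where the bin had 109, 64 and 118 IP reads over 66, 89 and 121 input reads. The exact HMGB2 match, 33 nt after the stop codon, lay in a bin not listed in UACC-62 replicate 1. The bin had 26 IP reads over 75 input reads in SK-Mel-103, and 18 over 30 in UACC-62 replicate 3. The HMGB3 element at 1030 nt lay in a bin with 39, 11 and 28 IP reads over 13, 6 and 4 input reads, which was a peak in SK-Mel-103 alone. The HMGN4 element at 1016 nt lay in a bin with 56, 26 and 63 IP reads over 20, 8 and 14 input reads, which was short of the read limit in UACC-62 replicate 1.

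The let-7 seed match was examined because HMGA2 is a textbook let-7 target. All 8 human let-7 5p mature forms in the RefSeq table (GRCh38.p14) have the same seed, shown in capitals (bases 2 to 8) in the first line, and the match in the mRNA is CUACCUC, shown in capitals in the other lines.
hsa-let-7a-5p: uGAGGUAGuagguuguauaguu
HMGA2, chr12:66357093-66357099, plus strand: uucgauuuCUACCUCagcagcag
HMGA2, chr12:66358328-66358334, plus strand: acucaauaCUACCUCugaauguu
HMGA2, chr12:66358740-66358746, plus strand: gcaaagacCUACCUCcagacuuc
HMGA2, chr12:66359593-66359599, plus strand: acacacuaCUACCUCuuaagucc
HMGA1, chr6:34213621-34213627, plus strand: uucacaaaCUACCUCuggacagu
HMGA2 had 4 matches on the transcript strand and HMGA1 had 1, while the other 7 genes had none. Among 3539 3′ UTRs of at least 3002 nt, 16.7% held a match in their first 3002 nt, and HMGA2 was the only 1 with as many as 4. The HMGA2 matches at 1259 and 1671 nt lay in common peaks, with 51, 32 and 52 IP reads over 27, 28 and 37 input reads and with 102, 64 and 144 IP reads over 45, 39 and 32 input reads. The match at 24 nt lay in a bin of 11, 12 and 26 IP reads. The match at 2524 nt had 8 and 13 IP reads in SK-Mel-103 and UACC-62 replicate 3, and its bin was not listed in UACC-62 replicate 1. The HMGA1 match lay in a common peak of 106, 34 and 59 IP reads over 97, 34 and 26 input reads. A match is a description of the sequence, and miRNA binding was not measured.

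Sequence shared with other loci divides the 9 genes. The reads were 40 nt long and were aligned with up to 2 mismatches and up to 20 places, so each 40-nt stretch of the transcripts was searched in the genome on the same terms. Of the 149 common peaks, 54 (36.2%) overlapped a stretch also found elsewhere. These were all common peaks of HMGB1 (16), HMGA1 (11), HMGN1 (9) and HMGN2 (17) and 1 of the 2 of HMGN3. None of the common peaks of HMGA2 (79), HMGN4 (14) or HMGB2 (1) did, so their reads have a single place in the genome at this limit. The annotated pseudogenes number 48 for HMGB1, 38 for HMGN2, 32 for HMGN1, 29 for HMGB3, 8 for HMGA1, 1 each for HMGB2 and HMGN3, and 0 for HMGA2 and HMGN4.

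**Figure D4:**
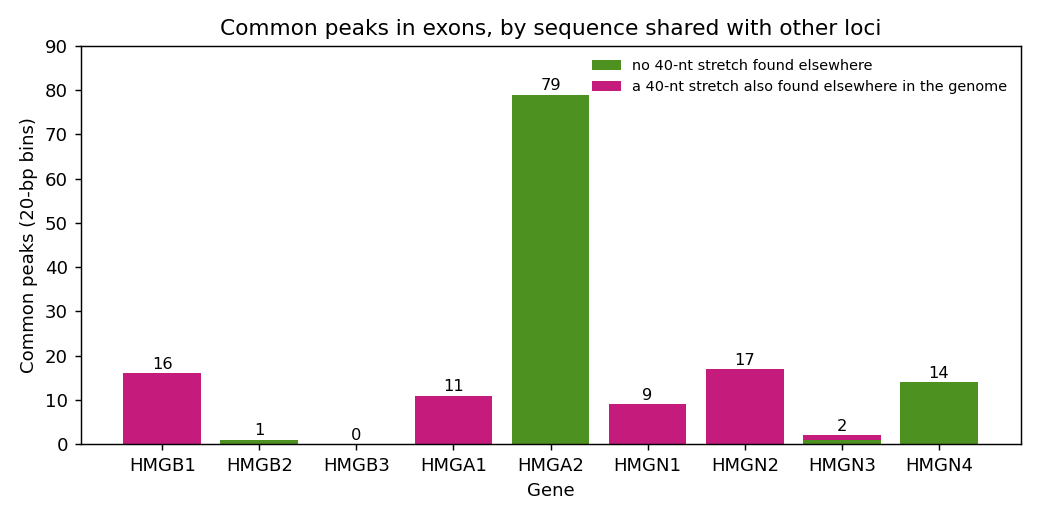
Number of common peaks in exons (y axis, 20-bp bins) for each of the 9 genes (x axis), divided into peaks that overlap a 40-nt stretch also found elsewhere in the genome (magenta) and those that do not (green). The 79 peaks of HMGA2 and 14 of HMGN4 are free of shared stretches, and all peaks of HMGB1, HMGA1, HMGN1 and HMGN2 hold them.

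Few of the pseudogenes themselves had listed bins. HMGN2P46 (chromosome 15), a transcribed processed pseudogene, had 198, 122 and 259 IP reads, which is 5.91%, 7.54% and 7.71% of those of HMGN2, with 502, 495 and 537 input reads. It held 2 peaks in each sample. HMGB1P3 (chromosome 2) had 42, 14 and 29 IP reads over 89, 63 and 64 input reads. HMGB1P21 had 7 IP reads in SK-Mel-103, HMGB1P1 had 4 in UACC-62 replicate 3, and HMGA1P1 had 4 in SK-Mel-103. HMGB1P1 is annotated as protein-coding despite its name. Pseudogenes of HMGB2, HMGB3, HMGN1 and HMGN3 had no listed bin, although 28 of those of HMGB3 and 23 of those of HMGN1 share 40-nt stretches with the parent. Reads that match several places cannot be assigned to the parent or to a copy from the lists.

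Bins with shared stretches had a lower IP over input than bins without them in 6 of the 7 genes that have both kinds in all samples. The share of all genes with this order was not computed, so the count is a description of these genes only. For HMGB1 the log2 values were -1.19, -2.13 and -1.34 in shared bins and -0.07, -0.88 and -0.42 in unique bins, the latter with only 129, 67 and 195 IP reads. For HMGB3, which has reads in both kinds, they were 0.27, 0.25 and 0.43 against 1.73, 1.12 and 1.88. For HMGB2 they were -0.95, -1.72 and -1.24 against 0.63, -0.12 and -0.75, and for HMGN4 0.09, -0.46 and 0.52 against 0.56, 0.40 and 1.17. HMGN1 and HMGN2 turned positive in their unique bins in all samples, but those held 4 to 195 IP reads, and in UACC-62 only 4 to 13. Bins were listed only where the IP passed, with 4 IP reads as the lowest count. HMGN3 went the other way, with -0.07, -1.48 and -0.75 in shared bins and -0.49, -1.58 and -1.33 in unique bins. Shared bins also include the coding regions, and the part of multiple alignment in these differences was not tested.

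Related genes were examined in the same files. Among 23 other HMG-box and HMGN genes, 2 had a common peak. The all-gene shares are 8.73% of all protein-coding genes and 26.3% of those with at least 100 reads in each sample. Of the 15 with enough reads, 6 were above 0 in all samples and 8 were below, beside 24.9% and 58.0% of all genes with enough reads. LEF1, the HMG-box factor of Wnt signalling, had 4 common peaks at 0.60, 1.30 and 0.75, and SMARCE1, a BAF complex subunit, had 1 at 0.29, -0.41 and 0.10. Of 7 linker histone genes, which compete with HMG proteins for nucleosomes, 3 had common peaks. As 5 of the 7 had enough reads, this is to be read beside 26.3% as well as 8.73%. H1-2 had 6 common peaks with log2 values of -1.59, -2.61 and -1.89, H1-5 had 3 with -1.57, -2.92 and -2.06, and H1-4 had 1 with -1.74, -2.67 and -1.97. Linker histone genes are close paralogs, and reads shared between them were not examined. Of 6 regulators of HMGA2 mRNA, 4 of them with enough reads, the mRNA-binding protein IGF2BP2 alone had a common peak. It had 1, with -1.36, -1.66 and -1.45, and the same all-gene shares apply. Of 8 receptors and partners of HMGB1, 3 of them with enough reads, 2 had a common peak, beside the same all-gene shares. The histone chaperone SET had 67 common peaks at -0.77, -1.06 and -0.89. Its partner in the same complex, ANP32A, had 24 at 0.33, 0.89 and 0.67.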

How the data were processed

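The data were CELF1 RIP-seq lists of the lines UACC-62 and SK-Mel-103, with 3 IP samples and 3 inputs. The 9 genes and all gene lists were chosen with earlier results of these data known. The authors removed ribosomal RNA, aligned 40-nt single-end reads to GRCh37 with TopHat (up to 2 mismatches and 20 places) and called 20-bp bins with Piranha, input as covariate. The submitters' processing notes name TopHat2 2.0.4 and Bowtie 0.12.7, and the methods name other versions. The deposited read counts are whole IP reads per passing bin, without normalization. The p-values were deposited by the authors as the caller gave them. The ratio in the last column, deposited by the authors, is the input relative to a fixed number. Dividing it by its smallest step gave whole input reads within 0.0186 read, and 0.01 stands for no input. Replicates were not pooled.

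Groups came from the sample labels. The listed strand was reversed, because almost no reads of the 9 genes fell on the listed one (at most 24 IP reads per gene and sample). Exons and regions came from GENCODE version 44 mapped to GRCh37, in the order 3′ UTR, coding, 5′ UTR, other exon. Log2 IP over input used a pseudocount of 1 read and the totals of the listed bins. Intervals are 95% and cover counting error only. PCR duplicates were not marked by molecular identifiers. Shared 40-mers were found by an exact search within loci matched by blastn 2.17.0, in Python 3.11.15 with pysam 0.24.0, numba 0.67.0, pandas 2.3.3 and numpy 2.4.6. Searches and counts were tested on simulated data. Named were all 9 genes, at most 3 pseudogenes per gene with listed bins, and at most 5 genes per list with a common peak. One related gene is not reported here. Alternatives covered read, p-value, strand, annotation, scaling, uniqueness and replicate choices.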

Additional observations from a re-analysis of the deposited data

Results flagged for a closer look

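The HMGB2 3′ UTR was singled out because its values lay on opposite sides of 0 in the 2 lines. For its 3′ UTR, the log2 ratio of IP to input was 0.52 in the SK-Mel-103 sample but -0.24 and -0.82 in UACC-62 replicates 1 and 3. Against the medians of all genes, which were taken over all exons (-0.33, -0.79 and -0.55), SK-Mel-103 and UACC-62 replicate 1 were both above and UACC-62 replicate 3 was below. Over all exons HMGB2 was below 0 in all 3 samples (-0.42, -1.01 and -1.08). The difference between the lines was not tested. The 3′ UTR held 1067 IP reads in SK-Mel-103 and 192 and 245 in UACC-62.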

How the results depend on the processing

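The 8 genes with a common peak became 9 without the read limit, 5 above 100 reads, 4 with unique bins only and 0 with the listed strand taken literally. They ranged from 8 to 9 without either UACC-62 replicate. The 149 common peaks became 563 without the read limit, 16 above 100 reads, 95 with unique bins, 70 without HMGA2 and 0 with the listed strand. Without UACC-62 replicate 1 they were 270 and without replicate 3 they were 149, so UACC-62 replicate 1, with the fewest peaks, set the count. The 3′ UTR share of 98.7% was 88.6% without the read limit and rose to all 16 peaks above 100 reads (100%) and all 95 in unique bins (100%), and 94.4% to 98.7% without either UACC-62 replicate. With no common peak, the listed strand gave no share.

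The GRE share of 2.04% was 0.0% with up to 1 mismatch and 0.0% with none, 13.6% within 100 nt of the bin, 6.25% (1 of 16 peaks) above 100 reads and 4.41% without HMGA2. The all-gene share of 4.84% was computed only for direct overlap with up to 2 mismatches and above 30 reads. Of all bins with a peak in any sample, 55.7% shared a 40-mer, which became 47.5% without the read limit, 48.4% above 100 reads, 49.5% for identical 40-mers and 78.0% without HMGA2. The 3 genes above 0 in all samples became 5 in unique bins and 0 with the listed strand. HMGN1 and HMGN2 were added in unique bins, on 4 to 13 IP reads per UACC-62 sample. Alternatives without HMGA2 and the whole-genome search were chosen after seeing the data.

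Of 164 recomputed single-gene ratios, 112 stayed within 1 SD of the UACC-62 replicates or, for the single SK-Mel-103 sample, within its 95% counting interval. Another 38 moved beyond these and 14 changed sign. With 1 UACC-62 replicate left out, the other always lies within 1 SD of their mean, so those ratios could only stay or change sign. In unique bins the SK-Mel-103 values were 0.63 for HMGB2, 1.04 for HMGA1, 0.54 for HMGN1 and 0.73 for HMGN2, and the UACC-62 means were 1.14 for HMGN1 and 1.53 for HMGN2. The unique bins of HMGA1 held 7 IP reads in SK-Mel-103, and those of HMGN1 and HMGN2 held 4 to 13 per UACC-62 sample. No listed bin had fewer than 4 IP reads, and bins were listed only where the IP passed. In the 3′ UTR alone HMGB2 was 0.52 in SK-Mel-103. Without division by totals, SK-Mel-103 gave 0.08 for HMGA1 and 0.17 for HMGN3, and above 30 reads HMGN3 gave 0.24. Without either UACC-62 replicate, HMGA1 ranged from -0.30 to 0.64. With the listed strand, from at most 24 IP reads, SK-Mel-103 gave 2.43 for HMGB1, 1.29 for HMGA1 and 1.13 for HMGN2. A further 16 ratios had no bins to compute from. The causes were not tested. No paired analysis was possible because the results come from no test, and each ratio already sets an IP against the input of its own number.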
